A study of Danio rerio with 8 samples.

Results

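The peroxiredoxins and their thioredoxin partners were followed in sorted zebrafish eosinophils through 10 genes: *prdx1*, *prdx2*, *prdx3*, *prdx4*, *prdx5*, *prdx6*, *txn*, *txnipa*, *sod1* and *cat*. The genes were taken by symbol from the expression tables, which list 30838 genes, and 10 of 10 were present in both. Each gene passed the filter on low values in both tables.

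Messenger RNA was measured in 8 libraries of the AB strain, 2 per genotype. Each used a Smart-seq2 protocol adapted to about 500 eGFP+ cells, which were sorted at 7 dpf from digested whole larvae. The groups were *cebp1*-/- (smu1 allele) with *cebp1*+/+ larvae in one table, and *cebpb*-/- (szy7 allele) with *cebpb*+/+ larvae in the other. All groups carried Tg(*eslec*:eGFP), in which the promoter of the eosinophil lectin gene *eslec* drives the sorting reporter, so the cells studied are those that use this promoter in each genotype. Cebp1 and Cebpβ are transcription factors of the C/EBP family, and the comparisons ask what the loss of each does to the sorted cells. The 2 libraries of a genotype came from different pools of larvae. The p-values below rest on the spread between such pools, estimated for a gene together with other genes of similar level. In bulk libraries, fewer cells of a type and less RNA per cell cannot be told apart.

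Peroxiredoxins are thiol peroxidases that reduce hydrogen peroxide at a reactive cysteine. Most of them are returned to the active state by thioredoxin, which thioredoxin reductase recharges with NADPH, and Txnip proteins bind reduced thioredoxin and block it. Superoxide dismutase makes hydrogen peroxide from superoxide and catalase splits it into water and oxygen. In mammals, eosinophils are known for a strong oxidative burst from the NADPH oxidase and for a granule peroxidase that consumes hydrogen peroxide.

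Levels are TPM, in which reads are divided by gene length and brought to the same sum in every library, and which allow genes of different length to be compared within a library. Changes between genotypes were read on 2 scales because they differ in direction for many genes. On the scaled TPM the libraries were divided by the median ratio of their genes to the table's geometric mean, and the factors were 0.658 and 0.750 for *cebp1*-/- against 1.64 and 1.33 for *cebp1*+/+, and 1.36 and 1.21 for *cebpb*-/- against 0.845 and 0.907 for *cebpb*+/+. The factors follow the many weakly expressed genes: the median gene had 2.19 and 2.697 TPM in *cebp1*-/- libraries, against 6.95 and 5.43 TPM in *cebp1*+/+ libraries. Of the genes in the *cebp1* table, 1045 averaged over 50 scaled TPM, and for these the median log2 fold change was 1.15 on scaled TPM and 0.09 on TPM as deposited. Among 1759 such genes in the *cebpb* table it was -0.30 on scaled TPM and 0.24 on TPM as deposited. What a gene does on both scales does not turn on the choice between these 2. A scaling on genes of at least 50 TPM lay outside them in the *cebp1* table, where it gave the 1045 genes a median of 0.01. The ratio of a gene to another gene of the same library depends on no scaling.

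The sorted cells carried eosinophil transcripts: all 7 listed eosinophil markers were above 0 in every library. *Cebp1* was listed at 0 in all 8 libraries and so does not check the *cebp1* genotype, while *cebpb* had 2928 and 1480 TPM in *cebpb*-/- libraries, against 6360 and 5716 TPM in *cebpb*+/+ libraries. Transcripts of other cells were unevenly spread. The 8 keratinocyte markers summed to 9.36 and 13.4 TPM in *cebp1*-/- libraries, against 173 and 1228 TPM in *cebp1*+/+ libraries, and to 272 and 880 TPM in *cebpb*-/- libraries, against 5.13 and 65.0 TPM in *cebpb*+/+ libraries, with *epcam* at 0 throughout. The 15 erythroid markers summed to 1870 TPM in the second *cebpb*+/+ library, where *hbae3* alone had 834 TPM, and to between 54.9 and 430 TPM in the other 7 libraries. Further lists were lower in both *cebp1*-/- libraries on TPM as deposited. The 7 neutrophil markers summed to 22.6 and 37.9 TPM in *cebp1*-/- libraries, against 119 and 97.8 TPM in *cebp1*+/+ libraries. The 8 macrophage markers, of which *mpeg1.1*, *c1qa*, *c1qb* and *c1qc* were listed at 0, summed to 14.3 and 14.4 TPM in *cebp1*-/- libraries, against 69.2 and 40.01 TPM in *cebp1*+/+ libraries. The 6 liver markers summed to 82.5 and 106 TPM in *cebp1*-/- libraries, against 516 and 199 TPM in *cebp1*+/+ libraries. The 8 muscle markers did not follow, with 783 and 19.3 TPM in *cebp1*-/- libraries, against 61.2 and 130 TPM in *cebp1*+/+ libraries. In the first *cebp1*-/- library *actc1b* alone had 507 TPM, and the part of muscle transcripts in the values of that library was not tested.

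*Prdx2*, a cytosolic peroxiredoxin that is abundant in mammalian red cells, was the highest of the 10 genes in all 4 groups and stood apart from the next gene in each. It ranked between 133 and 164 of all genes in every library. The messages of the 10 genes together made up 0.183% and 0.170% of all TPM in *cebp1*-/- libraries, against 0.168% and 0.173% in *cebp1*+/+ libraries, so the family as a whole took nearly the same share in both genotypes. For *cebpb* the shares were 0.382% and 0.325% in *cebpb*-/- libraries, against 0.268% and 0.335% in *cebpb*+/+ libraries, and the genotypes overlapped.

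Below *prdx2* the order differed between the groups. In *cebp1*-/- libraries *txnipa*, *prdx5* and *prdx4* followed, with means of 269, 254 and 242 TPM, neighbours that overlapped each other, and then *sod1*, which stood apart. In *cebp1*+/+ libraries *prdx5* came next, with a mean of 270 TPM, followed by *sod1* with 222 TPM, each apart from the gene after it. In *cebpb*-/- libraries *prdx1* was next by its mean but overlapped *prdx4*, the gene after it, and its 2 libraries differed 2.92-fold. In *cebpb*+/+ libraries *prdx4* was next, with a mean of 671 TPM, apart from *prdx1*. *Prdx3*, the mitochondrial peroxiredoxin, was lowest by its mean in 3 of 4 groups, and *txn* was lowest in *cebp1*-/- libraries. The ranges of *prdx3* and *txn* overlapped there and in both wild-type groups, so *prdx3* stood apart as the lowest in *cebpb*-/- libraries only.

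**Figure D1:**
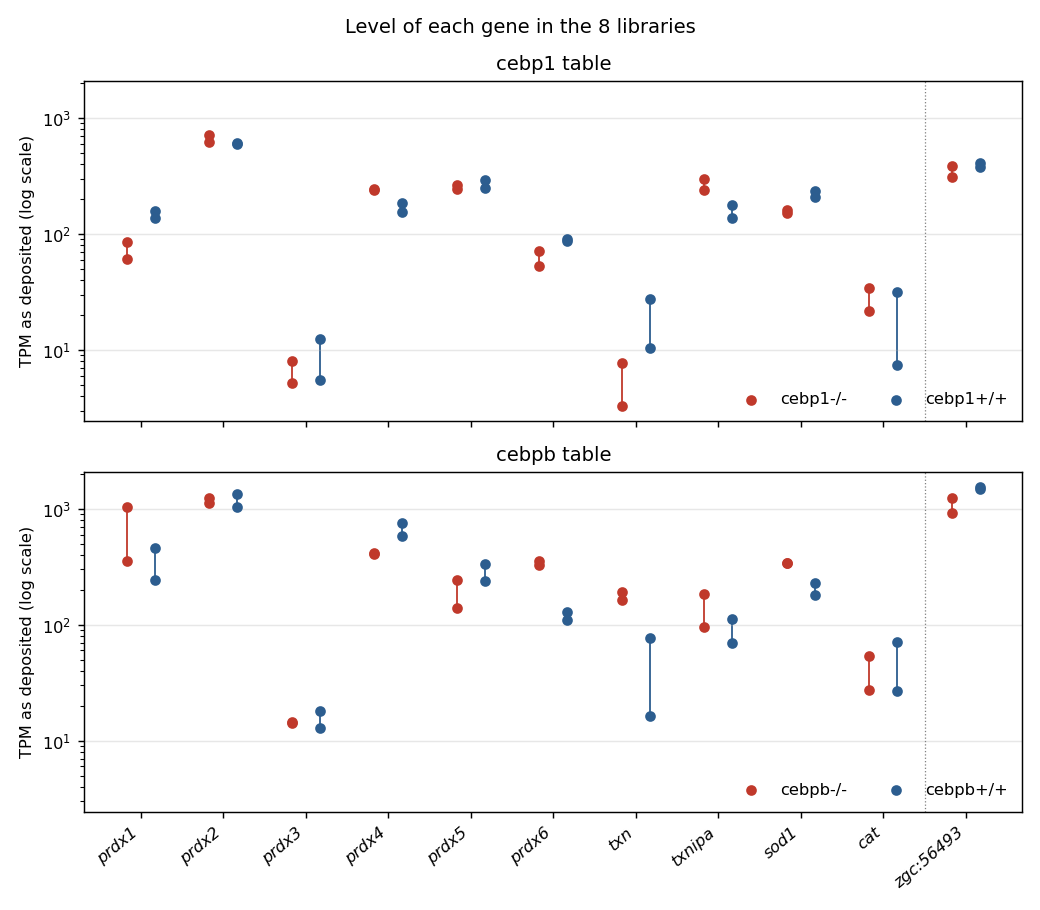
TPM as deposited (log axis) of the 10 genes and, right of the dotted line, of the thioredoxin gene *zgc:56493*, 1 point per library with a line joining the 2 libraries of a genotype, *cebp1* table above and *cebpb* table below. *Prdx2* is the highest of the 10 genes in each group, and *txn* spans 3.29 to 27.4 TPM in the *cebp1* table and 16.2 to 190.0 TPM in the *cebpb* table.

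The symbol *txn* needs care in these tables. The RefSeq gene table gives *txn* as an older symbol of *txnb*, and lists a second thioredoxin gene, *txna*, under the older symbol *zgc:56493*, which is the name the expression tables use. The gene *zgc:56493* is not among the 10 and was added after its values were seen. It had 309 and 384 TPM in *cebp1*-/- libraries, against 379 and 406 TPM in *cebp1*+/+ libraries. It had 925 and 1247 TPM in *cebpb*-/- libraries, against 1475 and 1536 TPM in *cebpb*+/+ libraries. In all 8 libraries it was above *txn*, so most thioredoxin message of these cells was listed under the clone name. The reads of these paralogs may be shared by the counting, which was not tested.

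Loss of *cebp1* was set against its own wild type with limma on the scaled TPM. *Txnipa*, a gene of the thioredoxin-binding Txnip proteins, was the 1 gene of the 10 that passed the test, and it rose. *Prdx4* and *prdx2* stood higher in both *cebp1*-/- libraries than in both *cebp1*+/+ libraries on either scale without passing. *Prdx1*, *prdx6*, *sod1* and *txn* were lower in *cebp1*-/- libraries on TPM as deposited, with no overlap, but none of these 4 was lower without overlap on scaled TPM. The keratinocyte, erythroid, neutrophil, macrophage and liver sums were also lower in *cebp1*-/- libraries on TPM as deposited, with no overlap, while the muscle sums overlapped. On that scale 61.3% of all genes were lower without overlap. Among the erythroid markers *hbae3* had 3.42 and 1.78 TPM in *cebp1*-/- libraries, against 26.9 and 43.9 TPM in *cebp1*+/+ libraries. *Cahz* overlapped, with 17.6 and 23.6 TPM against 21.1 and 21.0 TPM. The part of transcripts of other cells in the values of *prdx1*, *prdx6*, *sod1* and *txn* was not tested. The count of 1 higher and 0 lower compares with 1.28% of all 25203 genes called higher and 0.127% called lower. Of the 1045 genes above 50 scaled TPM, 23.2% were called higher and 0.191% lower. At an unadjusted p under 0.05, 5 of the 10 were higher and 0 lower, where 9.7% and 4.91% of all genes were. Shares at an unadjusted p were not counted among genes above 50 scaled TPM. An exact permutation test of a single gene over the 4 libraries could not go below p = 0.33.

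*Txnipa* had 296 and 241 TPM in *cebp1*-/- libraries, against 177 and 138 TPM in *cebp1*+/+ libraries. The lower mutant library was above the higher wild-type library, and the means stood 1.71-fold apart. Its log2 fold change on scaled TPM was 1.84 (SE 0.30, 95% interval 1.15 to 2.53, limma adjusted p = 0.040), and 0.77 on TPM as deposited (limma adjusted p = 0.11). The call was lost in the fits without any 1 of the 4 libraries, where the log2 fold change lay between 1.62 and 2.12 and the lowest limma adjusted p was 0.14. In the study's chromatin data *txnipa* is on the list of genes with a Cebp1 peak near their start, which is background here. Those data came from whole, younger larvae with heat-shock-driven Cebp1-eGFP and not from sorted eosinophils. Whether other genes of the set are on that list is not given here. The 7 eosinophil markers were higher in the mutant as well, with sums of 27684 and 30175 TPM in *cebp1*-/- libraries, against 15289 and 17756 TPM in *cebp1*+/+ libraries, and their part in the *txnipa* and *prdx4* values was not tested.

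*Prdx4*, the peroxiredoxin of the endoplasmic reticulum, which in mammals passes oxidizing power to proteins folding there, had 239 and 245 TPM in *cebp1*-/- libraries, against 154 and 184 TPM in *cebp1*+/+ libraries. Its mutant libraries lay within 1.02-fold of each other and both were above wild type. The log2 fold change was 1.59 on scaled TPM (SE 0.31, 95% interval 0.88 to 2.30, limma adjusted p = 0.057) and 0.52 on TPM as deposited (limma adjusted p = 0.17).

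*Prdx2* had 719 and 622 TPM in *cebp1*-/- libraries, against 614 and 601 TPM in *cebp1*+/+ libraries. The gap between the genotypes was smaller than that between the 2 mutant libraries. The log2 fold change was 1.21 on scaled TPM (SE 0.27, limma adjusted p = 0.081) and 0.14 on TPM as deposited (limma adjusted p = 0.61). With scaling on genes of at least 50 TPM it was 0.06 (limma adjusted p = 0.83).

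*Prdx1*, the other main cytosolic peroxiredoxin, had 60.5 and 85.6 TPM in *cebp1*-/- libraries, against 137 and 158 TPM in *cebp1*+/+ libraries. On TPM as deposited it was 2.02-fold lower in the mutant by the means, with no overlap, and its log2 fold change was -1.02 (limma adjusted p = 0.092). On scaled TPM the same libraries overlapped and the log2 fold change was 0.04 (SE 0.33, 95% interval -0.73 to 0.80, limma adjusted p = 0.97). Against *prdx2* in the same library, which no scaling touches, *prdx1* stood at 0.084 and 0.14 in *cebp1*-/- libraries and at 0.22 and 0.26 in *cebp1*+/+ libraries. The ratio to *prdx2* was also lower without overlap for *prdx5*, *prdx6*, *txn*, *sod1* and *zgc:56493*, and higher for *prdx4* and *txnipa*. A lower ratio is therefore not particular to *prdx1*.

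*Prdx6*, which in mammals takes its electrons from glutathione and not from thioredoxin, had 52.9 and 71.9 TPM in *cebp1*-/- libraries, against 90.7 and 86.6 TPM in *cebp1*+/+ libraries. It was lower in the mutant on TPM as deposited and higher on scaled TPM, with log2 fold changes of -0.52 and 0.54 (limma adjusted p = 0.25 and 0.49).

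*Sod1*, the cytosolic copper and zinc superoxide dismutase, had 153 and 160 TPM in *cebp1*-/- libraries, against 209 and 235 TPM in *cebp1*+/+ libraries. Each genotype was tight and the mutant was lower on TPM as deposited, with a log2 fold change of -0.50 (limma adjusted p = 0.18). On scaled TPM the direction turned, with a log2 fold change of 0.57 (SE 0.30, limma adjusted p = 0.44).

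*Txn* had 7.70 and 3.29 TPM in *cebp1*-/- libraries, against 10.5 and 27.4 TPM in *cebp1*+/+ libraries. Its libraries differed by more than 2-fold within both genotypes, and the log2 fold change was -0.61 on scaled TPM (SE 0.65, limma adjusted p = 0.71). *Prdx5*, which in mammals is found in mitochondria, peroxisomes and cytosol, had 265 and 244 TPM in *cebp1*-/- libraries, against 248 and 292 TPM in *cebp1*+/+ libraries. The genotypes of *prdx5* overlapped on TPM as deposited.

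*Prdx3* had 7.96 and 5.16 TPM in *cebp1*-/- libraries, against 12.3 and 5.46 TPM in *cebp1*+/+ libraries, and overlapped on both scales. *Cat*, the catalase gene, had 34.0 and 21.6 TPM in *cebp1*-/- libraries, against 31.7 and 7.38 TPM in *cebp1*+/+ libraries. Its wild-type libraries differed 4.298-fold, so the log2 fold change of 1.78 on scaled TPM had an SE of 0.60 (limma adjusted p = 0.22).

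Counted over the 10 genes on scaled TPM, 7 were higher in *cebp1*-/- libraries with no overlap and 0 were lower, where 23.1% and 23.3% of all genes were. On TPM as deposited 3 were higher and 4 lower, where 4.94% and 61.3% of all genes were. The 3 genes higher on both scales were *prdx2*, *prdx4* and *txnipa* and 0 were lower on both, where 5.11% and 23.3% of all genes were. These shares are over all genes, many of them weakly expressed, and were not counted among genes above 50 scaled TPM. The counts thus do not tell a trait of the set from its level. The median log2 fold change of the 10 was 0.80 on scaled TPM, beside -0.06 over all genes tested and 1.15 over genes above 50 scaled TPM, and the median of the set lay between them. Of the 10 genes 9 had a positive log2 fold change on scaled TPM, as did 89.8% of the genes above 50 scaled TPM. A positive value on TPM as deposited was found for 4 of the 10 and for 54.7% of those genes. On TPM as deposited the 3 medians were -0.20, -0.90 and 0.09.

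**Figure D2:**
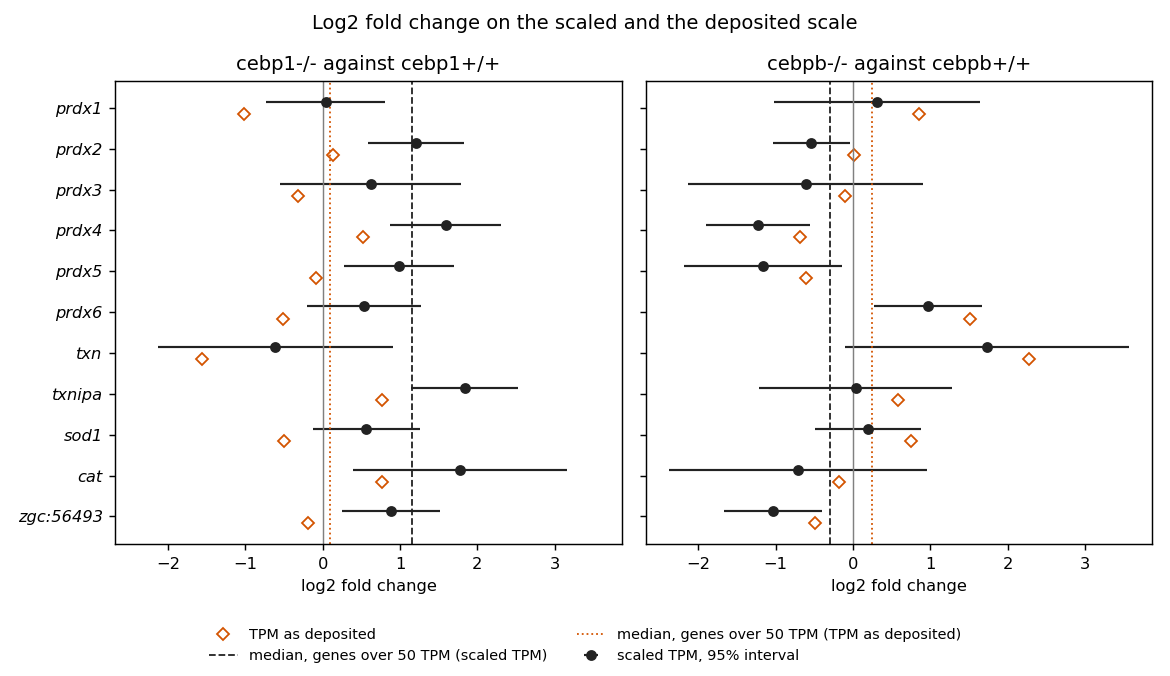
Log2 fold change of each gene, *cebp1*-/- against *cebp1*+/+ on the left and *cebpb*-/- against *cebpb*+/+ on the right. Filled points are scaled TPM with the 95% interval of the limma fit, open diamonds are TPM as deposited, and the dashed and dotted lines mark the median of genes over 50 TPM on each scale. *Prdx4* lies right of 0 on both scales on the left and left of 0 on both scales on the right, while *prdx1*, *prdx3*, *prdx5*, *prdx6* and *sod1* change side with the scale on the left.

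In the *cebpb* table *prdx6* and *txn* were higher, and *prdx4* lower, in both *cebpb*-/- libraries than in both *cebpb*+/+ libraries on either scale. None of the 10 genes passed the limma test, nor did any of the 11478 genes tested (0% in each direction). The paper, which used DESeq2 on read counts, reports genes that were lower after loss of *cebpb*. The lack of calls in this test, with 2 libraries per genotype, therefore does not show a lack of change. At an unadjusted p under 0.05, 1 of the 10 was higher (*prdx6*) and 3 were lower (*prdx2*, *prdx4*, *prdx5*), where 6.13% and 8.05% of all genes were. The spread left within genotypes was larger than in the *cebp1* table, with a median residual SD of 0.864 against 0.450 on the log2 scale. A fit of all 8 libraries, which shares the spread between the tables, called 1 of the 10, *prdx4*, lower, where 3.67% of 11360 genes were called lower and 2.21% higher. This fit, also used for the difference below, takes 1 spread for both tables although they differed in it. They also differed in the genes above 0, at 87.2% to 88.1% in libraries of the *cebp1* table and 39.3% to 50.3% in those of the *cebpb* table.

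*Prdx6* had 352 and 329 TPM in *cebpb*-/- libraries, against 110.1 and 128 TPM in *cebpb*+/+ libraries. The 2 libraries of each genotype lay within 1.16-fold of each other and the means stood 2.86-fold apart. Of the 10 genes *txn* alone had means farther apart in that direction, at 3.79-fold. The log2 fold change was 0.96 on scaled TPM (SE 0.28, 95% interval 0.26 to 1.66, limma adjusted p = 0.25) and 1.51 on TPM as deposited (limma adjusted p = 0.16). The keratinocyte markers were also higher in *cebpb*-/- libraries, with sums of 272 and 880 TPM, against 5.13 and 65.0 TPM in *cebpb*+/+ libraries, and their part in the values of *prdx6*, *txn* and *sod1* was not tested.

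*Txn* had 164 and 190.0 TPM in *cebpb*-/- libraries, against 16.2 and 77.3 TPM in *cebpb*+/+ libraries. Both mutant libraries were higher, and the wild-type libraries themselves differed 4.77-fold. The log2 fold change was 1.73 on scaled TPM (SE 0.74, 95% interval -0.11 to 3.57, limma adjusted p = 0.38) and 2.27 on TPM as deposited (limma adjusted p = 0.27). The gene *zgc:56493*, the more abundant thioredoxin gene, lay the other way on both scales, with log2 fold changes of -1.04 on scaled TPM and -0.49 on TPM as deposited (limma adjusted p = 0.21 and 0.34).

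*Prdx4* had 409 and 419 TPM in *cebpb*-/- libraries, against 759 and 583 TPM in *cebpb*+/+ libraries. The mutant libraries lay within 1.02-fold of each other and both were below wild type. The log2 fold change was -1.23 on scaled TPM (SE 0.27, 95% interval -1.91 to -0.56, limma adjusted p = 0.18) and -0.68 on TPM as deposited (limma adjusted p = 0.27). The 7 eosinophil markers also summed to less in the mutant, with 18854 and 26994 TPM in *cebpb*-/- libraries, against 48791 and 43659 TPM in *cebpb*+/+ libraries. Most of each sum was *eslec*, whose promoter Cebpβ binds in the paper, with 11658 and 17653 TPM, against 36138.5 and 31898 TPM. *Pdia2*, *agr2*, *cxcr4b* and *itln1* were also lower in both mutant libraries on TPM as deposited. *Gata2a* (600 and 624 TPM, against 540 and 651 TPM) and *fcer1gl* (1396 and 2142 TPM, against 1709 and 1988 TPM) overlapped. The part of these markers in the *prdx4* values was not tested.

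*Sod1* had 340.0 and 339.6 TPM in *cebpb*-/- libraries, against 179.7 and 228 TPM in *cebpb*+/+ libraries. It was higher in the mutant with no overlap on TPM as deposited, with a log2 fold change of 0.74 (limma adjusted p = 0.30). On scaled TPM the genotypes overlapped, with a log2 fold change of 0.20 (SE 0.27, limma adjusted p = 0.75).

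*Prdx2* had 1238 and 1128 TPM in *cebpb*-/- libraries, against 1028 and 1336 TPM in *cebpb*+/+ libraries. Its means were 1183 and 1182 TPM, and the log2 fold change was 0.01 on TPM as deposited and -0.54 on scaled TPM (SE 0.20, limma adjusted p = 0.32). The highest *prdx2* value of the table was in the library with the most erythroid transcript, and their part in it was not tested.

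*Prdx1* had 1035 and 354 TPM in *cebpb*-/- libraries, against 242 and 459.9 TPM in *cebpb*+/+ libraries. The first mutant library set the mean, and it also had the highest liver, muscle and macrophage marker sums of that table, at 227, 150 and 228 TPM. The liver sum was almost all *tfa*, at 226.8 TPM, and 4 of the 6 liver markers were listed at 0. *Actc1b* alone gave 110 TPM of the muscle sum. The part of such transcripts in the *prdx1* value was not tested. With that library left out the log2 fold change of *prdx1* on scaled TPM was -0.36, against 0.31 (SE 0.53, limma adjusted p = 0.80) with all 4.

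*Prdx5* had 140.3 and 241 TPM in *cebpb*-/- libraries, against 238 and 333 TPM in *cebpb*+/+ libraries. The log2 fold change was -1.16 on scaled TPM (SE 0.41, limma adjusted p = 0.31), and the genotypes overlapped on TPM as deposited. *Txnipa* had 95.5 and 184 TPM in *cebpb*-/- libraries, against 69.5 and 112 TPM in *cebpb*+/+ libraries, and overlapped on both scales.

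*Prdx3* had 14.4 and 14.1 TPM in *cebpb*-/- libraries, against 13.0 and 18.2 TPM in *cebpb*+/+ libraries. *Cat* had 27.4 and 53.9 TPM in *cebpb*-/- libraries, against 27.0 and 70.6 TPM in *cebpb*+/+ libraries. For both genes the genotypes overlapped on TPM as deposited. On scaled TPM *cat* overlapped too, while *prdx3* was lower in the mutant with no overlap (log2 fold change -0.61, SE 0.61, limma adjusted p = 0.64).

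Over the 10 genes, 2 were higher and 4 lower without overlap on scaled TPM, where 21.1% and 23.6% of all genes were. The 4 were *prdx2*, *prdx3*, *prdx4* and *prdx5*. On TPM as deposited 3 were higher and 1 lower, where 31.2% and 14.7% of all genes were. On both scales 2 were higher and 1 lower, where 21.1% and 15.4% of all genes were. Of these counts, the 4 lower on scaled TPM alone exceeded the share of all genes. Shares among genes above 50 scaled TPM were not counted here or at an unadjusted p. On scaled TPM 38.0% of those genes had a positive log2 fold change. The median log2 fold change of the 10 was -0.25 on scaled TPM, beside -0.03 over all genes and -0.30 over genes above 50 scaled TPM.

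Whether the mutations acted differently was tested in a fit of all 8 libraries, as the effect of *cebp1* loss minus that of *cebpb* loss. On scaled TPM 3 of the 10 genes passed, all with a positive difference, where 6.09% of 11360 genes did and 0.739% passed the other way. *Prdx4* differed by 2.82 on the log2 scale (SE 0.40, 95% interval 1.91 to 3.73, limma adjusted p = 0.0054), *prdx2* by 1.75 (SE 0.32, limma adjusted p = 0.014) and *prdx5* by 2.15 (SE 0.51, limma adjusted p = 0.043). These differences depend on the scaling. Over the 890 genes above 50 scaled TPM in both tables the median difference was 1.87. On TPM as deposited, where that median was 0.26, *prdx4* differed by 1.21 (limma adjusted p = 0.060), *prdx2* by 0.13 and *prdx5* by 0.53. The 1 gene that passed there was *prdx6*, with a difference of -2.03 (SE 0.37, limma adjusted p = 0.030), where 3.53% of 11536 genes passed in that direction and 0.919% in the other, and the median difference over all genes was -0.98. With scaling on genes of at least 50 TPM *prdx6* passed too (-1.80, limma adjusted p = 0.040) and *prdx4* did not (1.44, limma adjusted p = 0.051), where 2.65% of genes passed in the direction of *prdx6* and 1.19% in the other.

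The ratio of *prdx4* to *prdx6* within a library, chosen after its values were seen and therefore given with no test, is free of any scaling. It was 4.52 and 3.41 in *cebp1*-/- libraries, against 1.69 and 2.12 in *cebp1*+/+ libraries. It was 1.16 and 1.28 in *cebpb*-/- libraries, against 6.89 and 4.57 in *cebpb*+/+ libraries. The balance of these peroxiredoxins thus lay toward *prdx4* in the *cebp1* mutant and toward *prdx6* in the *cebpb* mutant, each relative to its wild type. The wild-type groups of the tables also differed in this ratio with no overlap, so it does not vary with the mutations alone. Keratinocyte sums were lower in *cebp1*-/- and higher in *cebpb*-/- libraries than in their wild types, and their part in the ratio was not tested.

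The make-up of the set can be read without reference to other genes, each gene as a percentage of the summed TPM of the 10 in its library. *Txnipa* made up 16.2% and 14.2% in *cebp1*-/- libraries, against 10.5% and 7.95% in *cebp1*+/+ libraries. *Sod1* made up 8.33% and 9.43% in *cebp1*-/- libraries, against 12.4% and 13.5% in *cebp1*+/+ libraries. *Prdx1* made up 3.30% and 5.04% in *cebp1*-/- libraries, against 8.15% and 9.11% in *cebp1*+/+ libraries. Within the set the mutant thus held more of *txnipa* and less of *sod1* and of *prdx1*, with no overlap. The shares of *prdx2*, *prdx4*, *prdx5*, *prdx6* and *txn* did not overlap either, and those of *prdx3* and *cat* did. Lack of overlap therefore does not single out the genes named first.

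After loss of *cebpb*, *prdx4* made up 10.7% and 12.9% in *cebpb*-/- libraries, against 28.3% and 17.4% in *cebpb*+/+ libraries. *Prdx6* made up 9.22% and 10.1% in *cebpb*-/- libraries, against 4.105% and 3.81% in *cebpb*+/+ libraries. *Txn* made up 4.29% and 5.84% in *cebpb*-/- libraries, against 0.60% and 2.31% in *cebpb*+/+ libraries. None of these 3 shares overlapped between the genotypes. The shares of *prdx2*, *prdx3*, *prdx5* and *sod1* did not overlap either, and those of *prdx1*, *txnipa* and *cat* did. Shares of one sum depend on each other, so they describe the set and were not tested.

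**Figure D3:**
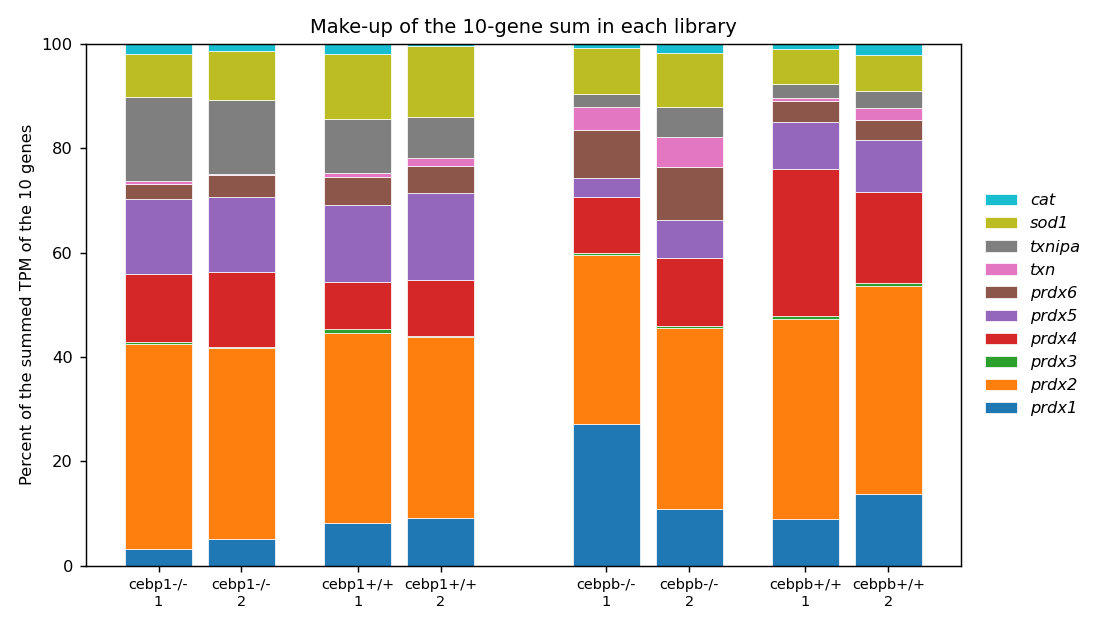
Percentage of the summed TPM of the 10 genes taken by each gene in the 8 libraries, 1 bar per library, *cebp1* table on the left and *cebpb* table on the right. *Prdx2* fills 32.5% to 39.9% of every bar, *txnipa* is widest in the *cebp1*-/- bars (16.2% and 14.2%), and *prdx4* is narrower in the *cebpb*-/- bars (10.7% and 12.9%) than in the *cebpb*+/+ bars (28.3% and 17.4%).

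Txnip binds thioredoxin, so *txnipa* was also set against the more abundant thioredoxin gene in the same library. The ratio of *txnipa* to *zgc:56493* was 0.96 and 0.63 in *cebp1*-/- libraries, against 0.47 and 0.34 in *cebp1*+/+ libraries. It was 0.10 and 0.15 in *cebpb*-/- libraries, against 0.047 and 0.073 in *cebpb*+/+ libraries. The ratio was higher in the mutant of both tables with no overlap, and it was chosen after its values were seen. A second Txnip gene, *txnipb*, lay the other way in the *cebp1* table. It had 0.65 and 1.27 TPM in *cebp1*-/- libraries, against 11.3 and 6.04 TPM in *cebp1*+/+ libraries. Its log2 fold change was -1.51 on scaled TPM and -2.26 on TPM as deposited (limma adjusted p = 0.23 and 0.081). The ratio therefore does not speak for Txnip genes as a class.

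The wider redox network was read from a list of 107 further genes found in the tables, in 6 groups. On scaled TPM 97 of them were tested in the *cebp1* table. Of these, 4 were called higher and 0 lower, beside 1.28% and 0.127% of all genes. Among the 1045 genes above 50 scaled TPM, 23.2% were called higher and 0.191% lower. Without overlap on both scales 10 of the 97 were higher and 14 lower, where 5.11% and 23.3% of all genes were. The 4 called genes were *gsr*, *msra*, *cyba* and *rac2*, and all 4 stood higher in both mutant libraries on either scale. None of the 4 calls held on TPM as deposited or with any 1 of the 4 libraries left out. Of the same list 79 were tested in the *cebpb* table and 0 passed the limma test, with 9 higher and 9 lower at an unadjusted p under 0.05, beside 6.13% and 8.05% of all genes.

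*Gsr*, glutathione reductase, had 97.1 and 88.7 TPM in *cebp1*-/- libraries, against 27.5 and 27.1 TPM in *cebp1*+/+ libraries. The gap far exceeded the spread in either genotype, with a log2 fold change of 2.77 on scaled TPM (SE 0.34, 95% interval 1.98 to 3.56, limma adjusted p = 0.025) and 1.73 on TPM as deposited (limma adjusted p = 0.063). *Msra*, which repairs oxidized methionine and draws on thioredoxin, had 90.1 and 117 TPM in *cebp1*-/- libraries, against 32.9 and 38.3 TPM in *cebp1*+/+ libraries. Its log2 fold change was 2.55 on scaled TPM (limma adjusted p = 0.026) and 1.504 on TPM as deposited.

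*Cyba*, the membrane subunit of the NADPH oxidase, had 517 and 451 TPM in *cebp1*-/- libraries, against 302 and 261 TPM in *cebp1*+/+ libraries (log2 fold change 1.85 on scaled TPM, limma adjusted p = 0.032). *Rac2*, the small GTPase that switches the oxidase on, had 194 and 182 TPM in *cebp1*-/- libraries, against 131 and 90.2 TPM in *cebp1*+/+ libraries (log2 fold change 1.84, limma adjusted p = 0.039). Their log2 fold changes of 0.78 and 0.78 on TPM as deposited were close to that of *txnipa*. After loss of *cebpb* the pair parted: *cyba* had 2198 and 3077 TPM in *cebpb*-/- libraries, against 1334 and 1334 TPM in *cebpb*+/+ libraries. *Rac2* had 284 and 306 TPM in *cebpb*-/- libraries, against 448 and 386 TPM in *cebpb*+/+ libraries. Neither passed the limma test in that table.

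By group, 0 of 21 thioredoxin-system genes passed in the *cebp1* table, with a median log2 fold change of 0.38 on scaled TPM. Of 33 glutathione-system genes 1 rose (median 0.36), of 5 methionine sulfoxide reductases 1 rose (median 0.23), and of 14 genes of the NADPH oxidase and peroxidases 2 rose (median 0.05). Of 20 genes of Nrf2, the regulator of the oxidative stress response, and its targets, 0 passed (median 0.68), and 0 of 4 superoxide dismutases passed (median 0.60). All 6 medians lay above the -0.06 of all genes and below the 1.15 of genes above 50 scaled TPM. On TPM as deposited all 6 were negative, between -0.76 and -0.22. There the median was -0.90 over all genes and 0.09 over genes above 50 scaled TPM. For *cebpb* the medians on scaled TPM were -0.52 for 18 thioredoxin-system genes, 0.04 for 28 glutathione-system genes and -0.56 for 17 genes of Nrf2 and its targets. They were -1.23 for 3 superoxide dismutases, -0.34 for 4 methionine sulfoxide reductases and 0.41 for 9 genes of the NADPH oxidase and peroxidases. The median was -0.03 over all genes and -0.30 over genes above 50 scaled TPM.

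The most abundant genes of these groups that did not pass the test were spread in direction. *Taldo1*, an enzyme of the pathway that supplies NADPH, had 323 and 287 TPM in *cebp1*-/- libraries, against 249.96 and 212 TPM in *cebp1*+/+ libraries, and was higher without overlap on both scales. *Txnl1*, a thioredoxin-like protein, had 34.2 and 24.1 TPM in *cebp1*-/- libraries, against 22.5 and 20.1 TPM in *cebp1*+/+ libraries. Both genes lay below wild type on both scales in the *cebpb* table. *Txnrd1*, the gene for cytosolic thioredoxin reductase, had 25.9 and 17.7 TPM in *cebp1*-/- libraries, against 33.2 and 56.7 TPM in *cebp1*+/+ libraries, and overlapped on scaled TPM.

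*Gstp1*, a glutathione S-transferase of the kind that in mammals recharges Prdx6, had 44.4 and 96.8 TPM in *cebp1*-/- libraries, against 187 and 283 TPM in *cebp1*+/+ libraries. It had 1157 and 891 TPM in *cebpb*-/- libraries, against 410.3 and 371 TPM in *cebpb*+/+ libraries. Like *prdx6*, *gstp1* was higher in the *cebpb* mutant on both scales with no overlap, as were 21.1% of all genes. Both were lower in the *cebp1* mutant on TPM as deposited with no overlap, as were 61.3% of all genes. On scaled TPM the *gstp1* log2 fold changes, 0.83 for *cebpb* and -0.73 for *cebp1*, did not pass the test (limma adjusted p = 0.24 and 0.49). There *prdx6* lay the other way for *cebp1*, at 0.54. The part of transcripts of other cells in the *gstp1* values was not tested. *Mgst3b*, a membrane glutathione S-transferase, had 114 and 109 TPM in *cebp1*-/- libraries, against 167 and 168 TPM in *cebp1*+/+ libraries, lower in the mutant on TPM as deposited and higher on scaled TPM.

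*Sqstm1*, an adaptor of selective autophagy that in mammals feeds into Nrf2, had 1013 and 690 TPM in *cebpb*-/- libraries, against 321 and 561 TPM in *cebpb*+/+ libraries, with overlap on scaled TPM. *Sod2*, the mitochondrial superoxide dismutase, was listed at 0 in one *cebpb*-/- library and at 49.8 TPM in the other, against 57.8 and 63.0 TPM in *cebpb*+/+ libraries. *Sod3b*, an extracellular dismutase, had 20.9 and 48.3 TPM in *cebpb*-/- libraries, against 5.83 TPM and a listing at 0 in *cebpb*+/+ libraries. *Msrb3*, another methionine sulfoxide reductase, reached 14.7 TPM at most in the 8 libraries.

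**Figure D4:**
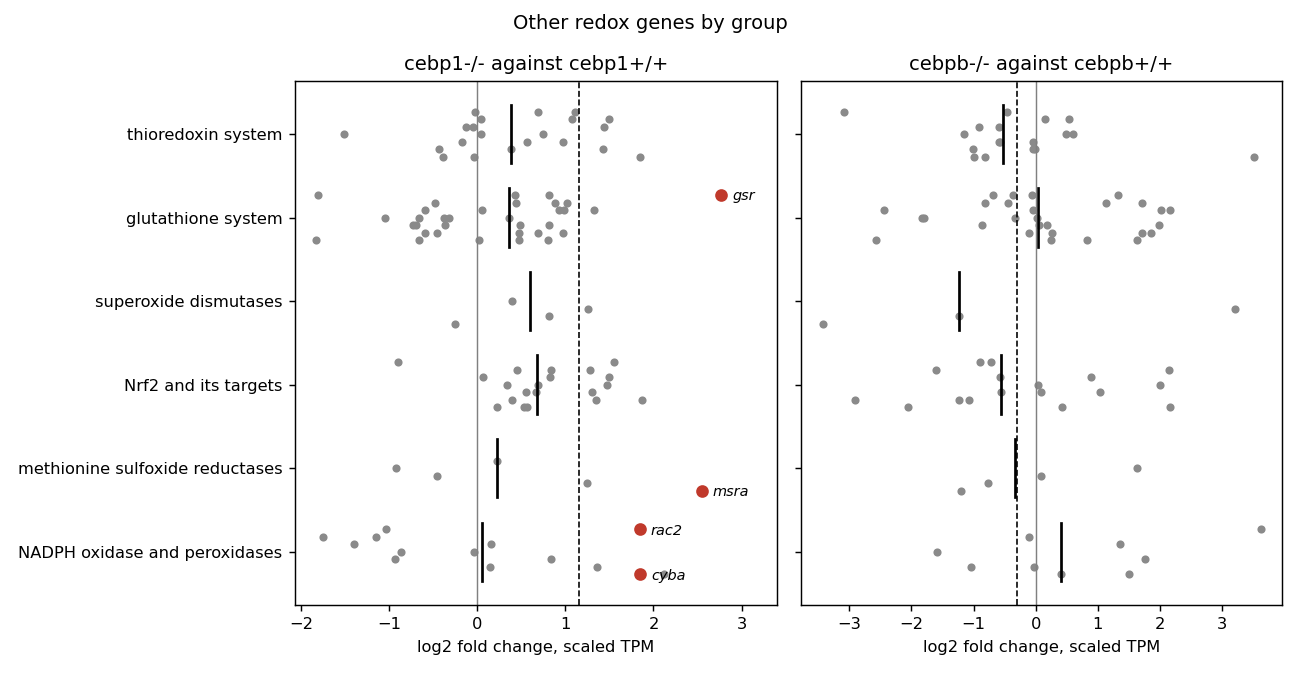
Log2 fold change on scaled TPM of the tested genes of the redox list, 1 point per gene, in 6 groups, *cebp1* table on the left and *cebpb* table on the right. Bars mark the median of a group and the dashed line the median of genes over 50 scaled TPM, and the genes that passed the test are named: *gsr* (2.77), *msra* (2.55), *cyba* (1.85) and *rac2* (1.84) on the left and none on the right.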

How the data were processed

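The authors mapped the reads of 8 libraries with STAR to the GRCz11 build, counted with featureCounts, and deposited TPM values in 2 tables of 4 libraries. Gene lengths and annotation behind the TPM are not given in the sources used here. TPM keep no depth, so the reads behind a value are unknown and no counting error is given. All per-sample columns were used (0 left out).

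TPM were scaled within each table by the median of ratios over genes above 0 in all 4 libraries with a mean of at least 1 TPM. Genes that averaged 1 scaled TPM or more entered a two-sided limma test (version 3.58.1, R 4.3.3) on log2(scaled TPM + 1), with genotype as the term, a variance trend over mean level and Benjamini-Hochberg adjustment over all genes tested. Fold changes on this scale understate the change of low genes. Calls were made at an adjusted p under 0.05. The study's own test, DESeq2, needs read counts and was not used. The difference of the effects came from 1 fit of all 8 libraries over genes tested in both tables. The tables were normalized separately, so no level was tested across them. The fits were run on simulated data with 200 changed genes. There all genes of a table had the same spread, and each library factor was imposed on all genes alike. The simulation therefore did not test the choice of scale or a spread that varies with level.

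The 10 genes and all lists were chosen with earlier results of these data known. Named from the redox list (116 names, 107 found) were genes called in either table and the 2 of highest mean TPM in each group. Older symbols were matched through the RefSeq gene table (GRCz12tu), used for names only. The replicate numbers did not pair libraries (correlation of deviations 0.008 for *cebp1* and -0.019 for *cebpb*). In all, 17 alternative settings were tried, including leaving out each library in turn. Leaving out libraries in the test of the difference was added after the data were seen. The plots used matplotlib 3.10.9 (Python 3.11.15).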

Additional observations from a re-analysis of the deposited data

Results flagged for a closer look

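The effects of the mutations on *prdx4*, *prdx2* and *prdx5* differed in the limma fit of all 8 libraries on scaled TPM. The effect of *cebp1* loss minus that of *cebpb* loss was 2.82 for *prdx4*, from effects of 1.59 on loss of *cebp1* and -1.23 on loss of *cebpb*. It was 1.75 for *prdx2*, from 1.21 and -0.54, and 2.15 for *prdx5*, from 0.98 and -1.16, in the same order. *Prdx4* passed this test in the fits without each of the 8 libraries, with differences between 2.56 and 3.12. *Prdx2* missed it without the first *cebp1*-/- library (limma adjusted p = 0.079), without the first *cebp1*+/+ library (0.0503), and without either *cebpb*+/+ library (0.051 and 0.065). Of the fits with 1 library left out, *prdx5* passed in those without the first or the second *cebpb*-/- library (limma adjusted p = 0.043 and 0.012). Genes above 50 scaled TPM had a median difference of 1.87 on this scale. With all 8 libraries, *prdx4*, *prdx2* and *prdx5* each missed the call on TPM as deposited, with scaling on genes of at least 50 TPM, and with no mean-variance trend. For *prdx4* the limma adjusted p was 0.060, 0.051 and 0.084 in that order.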

How the results depend on the processing

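The 2 libraries per genotype, the unknown depth of TPM and the scaling limit these results. The *cebp1* comparison called 355 genes, against 212 with a pseudocount of 0.1, 1183 with a filter of 10 scaled TPM, 45 (16 higher, 29 lower) on TPM as deposited, 40 (11 higher, 29 lower) with scaling on genes of at least 50 TPM, and 0 with no filter, no mean-variance trend or any 1 library left out (0 to 0). Of the 10 genes 1 was called, against 3 (*prdx2*, *prdx4*, *txnipa*) with the filter of 10 or in the fit of all 8 libraries, and 0 on TPM as deposited, with the scaling on 50 TPM, with no filter, no trend or any library left out. Of the redox list 4 were called, against 12 with the filter of 10 and 0 in the same other fits. The *cebpb* comparison called 0 genes (1628 at an unadjusted p under 0.05), against 10 with a pseudocount of 5, 11 with the filter of 10, 29 with the replicate block and 668 in the fit of all 8 libraries, which called 1 of the 10 genes and 4 of the redox list. The replicate block changed no call among the 10 genes. In the test of the difference 3 of the 10 passed, against 1 on TPM as deposited or with the scaling on 50 TPM, 0 with no trend and 1 to 4 with 1 library left out.

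On TPM as deposited and with the scaling on 50 TPM the *cebp1* log2 fold change turned for *prdx1* (-1.02 and -1.10), *prdx3* (-0.32 and -0.39), *prdx5* (-0.083 and -0.16), *prdx6* (-0.52 and -0.60), *sod1* (-0.50 and -0.58) and *zgc:56493* (-0.19 and -0.27), and on TPM as deposited that of *prdx2* in the *cebpb* table (0.013). With 1 library left out it ranged from -0.20 to 0.31 for *prdx1* and -1.35 to 0.18 for *txn* in the *cebp1* table, and from -0.36 to 1.02 for *prdx1* and -0.49 to 0.60 for *txnipa* in the *cebpb* table. The cause was not tested.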

Other observations

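Further redox genes outside the naming rule were noticed after their values were seen, and they are given as values with no test of their own. *Nfe2l2a*, which encodes the Nrf2 regulator, had 661 and 568 TPM in *cebpb*-/- libraries, against 169 and 247 TPM in *cebpb*+/+ libraries (log2 fold change 1.03 on scaled TPM, limma adjusted p = 0.23). *Mafk*, a small Maf protein that pairs with Nrf2 on DNA, had 225 and 137 TPM in *cebpb*-/- libraries, against 14.4 and 46.8 TPM in *cebpb*+/+ libraries (2.16, limma adjusted p = 0.25). *Gclm*, a subunit of the enzyme that starts glutathione synthesis, had 184 and 159 TPM in *cebpb*-/- libraries, against 13.5 and 72.3 TPM in *cebpb*+/+ libraries (1.86, limma adjusted p = 0.37).

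*Gpx4a*, a glutathione peroxidase of lipid hydroperoxides, had 201 and 216 TPM in *cebpb*-/- libraries, against 37.4 and 49.5 TPM in *cebpb*+/+ libraries (1.71, limma adjusted p = 0.17). *Nqo1*, a quinone reductase, had 142 and 178 TPM in *cebpb*-/- libraries, against 43.1 and 77.6 TPM in *cebpb*+/+ libraries (0.90, limma adjusted p = 0.43). These 5 genes were higher in both mutant libraries on either scale, as *prdx6* and *txn* were, and none passed the test. They were picked for that direction, and the Nrf2 group as a whole did not share it: 8 of its 17 tested genes had a positive log2 fold change on scaled TPM, with a median of -0.56 (-0.075 on TPM as deposited). Other members lay below wild type on scaled TPM, among them *me1* (log2 fold change -2.90), *hmox1a* (-2.06) and *park7* (-1.60), with limma adjusted p of 0.37, 0.36 and 0.32. The keratinocyte sums given in the report, 272 and 880 TPM in *cebpb*-/- libraries against 5.13 and 65.0 TPM in *cebpb*+/+ libraries, moved the same way, and their part in these values was not tested. Of the 79 redox-list genes tested in that table, 15 were higher and 11 lower without overlap on both scales, where 21.1% and 15.4% of all 11478 genes were.

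In the *cebp1* table *ncf1*, a cytosolic subunit of the NADPH oxidase, had 54.7 and 36.4 TPM in *cebp1*-/- libraries, against 20.3 and 20.6 TPM in *cebp1*+/+ libraries (2.12, limma adjusted p = 0.056). Its levels were 87.8 and 45.4 TPM in *cebpb*-/- libraries, against 122 and 143 TPM in *cebpb*+/+ libraries. *Epx*, named for eosinophil peroxidase, stayed at or below 4.09 TPM in all 8 libraries.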
